A study of Mus musculus with 12 samples.

Results

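The genes described here are those of the proteasome, the chamber-shaped protease that degrades most short-lived and damaged proteins of a cell. They were chosen by symbol: every gene whose symbol starts with Psm, followed by a letter from a to g and a number, on probe sets named by a single gene. This gave 48 genes on 54 probe sets, out of 19935 genes on the array. They comprise 7 alpha ring and 7 constitutive beta ring subunits of the core, 6 ATPases and 3 non-ATPase subunits of the base, 8 lid subunits, 5 inducible subunits and activators, 7 assembly chaperones, 3 other activators and inhibitors, and 2 tissue-restricted core subunits. The 31 core, base and lid subunits are called constitutive below and were set against the inducible 5.

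The samples were labelled as colon epithelial cells of male mice aged 8 to 10 weeks. Villin-Claudin-2 transgenic mice (Cl-2TG, called TG here), whose transgene for the tight junction protein claudin-2 is named for villin, a protein of the gut epithelial brush border, were compared with wild-type littermates (WT). Both genotypes drank dextran sulfate sodium (DSS) at 4% w/v, a polymer that injures the colon lining, or plain water, for 10 days. Total RNA was hybridised to 12 Affymetrix Mouse Gene 1.0 ST arrays, 3 each for TG under DSS, WT under DSS, TG on water and WT on water. Whether each array stands for a separate animal is not stated in the labels, and p-values therefore rest on the spread of these 12 samples, some of which may be technical. Values are log2 signals with each probe set's median over the 12 arrays set to 0, so they compare arrays for 1 gene and give no level that could be set against another gene.

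The proteasome core is a barrel of 4 stacked rings, with alpha rings at the ends that gate the entrance and beta rings inside that hold the cutting sites. The regulatory particle binds ubiquitin-tagged proteins with its lid and base, unfolds them with a ring of ATPases and threads them into the core. Interferon-gamma is known to induce 3 alternative cutting subunits, Psmb8, Psmb9 and Psmb10, which take the places of Psmb5, Psmb6 and Psmb7 in newly built cores, and the activator Psme1-Psme2, which opens the core. The resulting immunoproteasome makes peptides suited to presentation on MHC class I, and it is found in the colon lining in inflammation.

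The arrays under DSS differed from one another, which bears on every comparison below. The epithelial marker list (16 of 16 genes measured) gave -2.04 as its median in WT DSS replicate 2, and between -0.19 and 0.11 in the other 11 arrays. For the leukocyte list (19 of 20 genes measured) the TG DSS arrays had medians of 0.82, -0.04 and -0.54 and the WT DSS arrays 1.45, 1.69 and -0.01, in the order of their replicate numbers, against -0.44 to 0.22 in the 6 water arrays. For the stromal and endothelial list (12 genes) they were 0.66, -0.32 and -0.25 for TG and 0.93, 2.26 and -0.30 for WT. Its medians in the water arrays were between -0.40 and 0.17. In bulk RNA, fewer cells of a type and less RNA per cell cannot be told apart. Since the values are centred, they do not show whether a marker was detected at all. Cldn2, which encodes claudin-2, read 0.36, 0.18 and -0.02 in TG on water, against -0.04, 0.02 and 0.11 in WT on water, so the groups overlapped.

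No proteasome gene passed at an adjusted p under 0.05 in any comparison. The test was limma's moderated test in one fit of all 12 arrays, two-sided, with Benjamini-Hochberg adjustment over all 19935 genes. Among all genes, 0% passed for DSS minus water in TG, 0.171% for DSS minus water in WT, 0.0401% for TG minus WT under DSS, and 0% for TG minus WT at water and for the interaction, which is the DSS difference in TG minus that in WT. At an unadjusted p under 0.05 the members numbered 7 of 48 for DSS in TG (2.38% of all genes), 3 for DSS in WT (15.2% of all genes) and 8 for TG against WT under DSS (15.9% of all genes). They numbered 0 for TG against WT at water (0.306% of all genes) and 6 for the interaction (5.85% of all genes). All of these member differences were positive, while the shares of all genes count both directions. Of all 19935 genes, those higher numbered 242 for DSS in TG, 1136 for DSS in WT and 2055 for TG against WT under DSS. They numbered 35 at water and 914 for the interaction. The error of a gene was pooled over all 4 groups, so a wide spread in any group widens the errors of every comparison. Fitted with the 2 compared groups alone, 9 members were higher and 1 lower for DSS in TG at an unadjusted limma p under 0.05 (5.65% of all genes). Those fits gave 3 for DSS in WT (7.75%), 5 for TG against WT under DSS (9.43%) and 0 at water (2.12%). Because no member passed, differences below are given as measured values with their errors.

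The range over the 12 arrays had a median of 0.53 log2 units over the 48 genes, against 0.64 over all genes, and ran from 0.22 for Psmd8, a lid subunit, to 1.18 for Psmb10. Psmd7 (1.07), Psma5 (0.88), Psmb9 (0.86) and Psmb8 (0.84) came next after Psmb10. The SD within a group had a median over the members of 0.11 in TG under DSS, 0.15 in WT under DSS, 0.09 in TG on water and 0.10 in WT on water. Over all genes it was 0.11 in TG under DSS, 0.19 in WT under DSS, 0.13 in TG on water and 0.13 in WT on water.

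**Figure D1:**
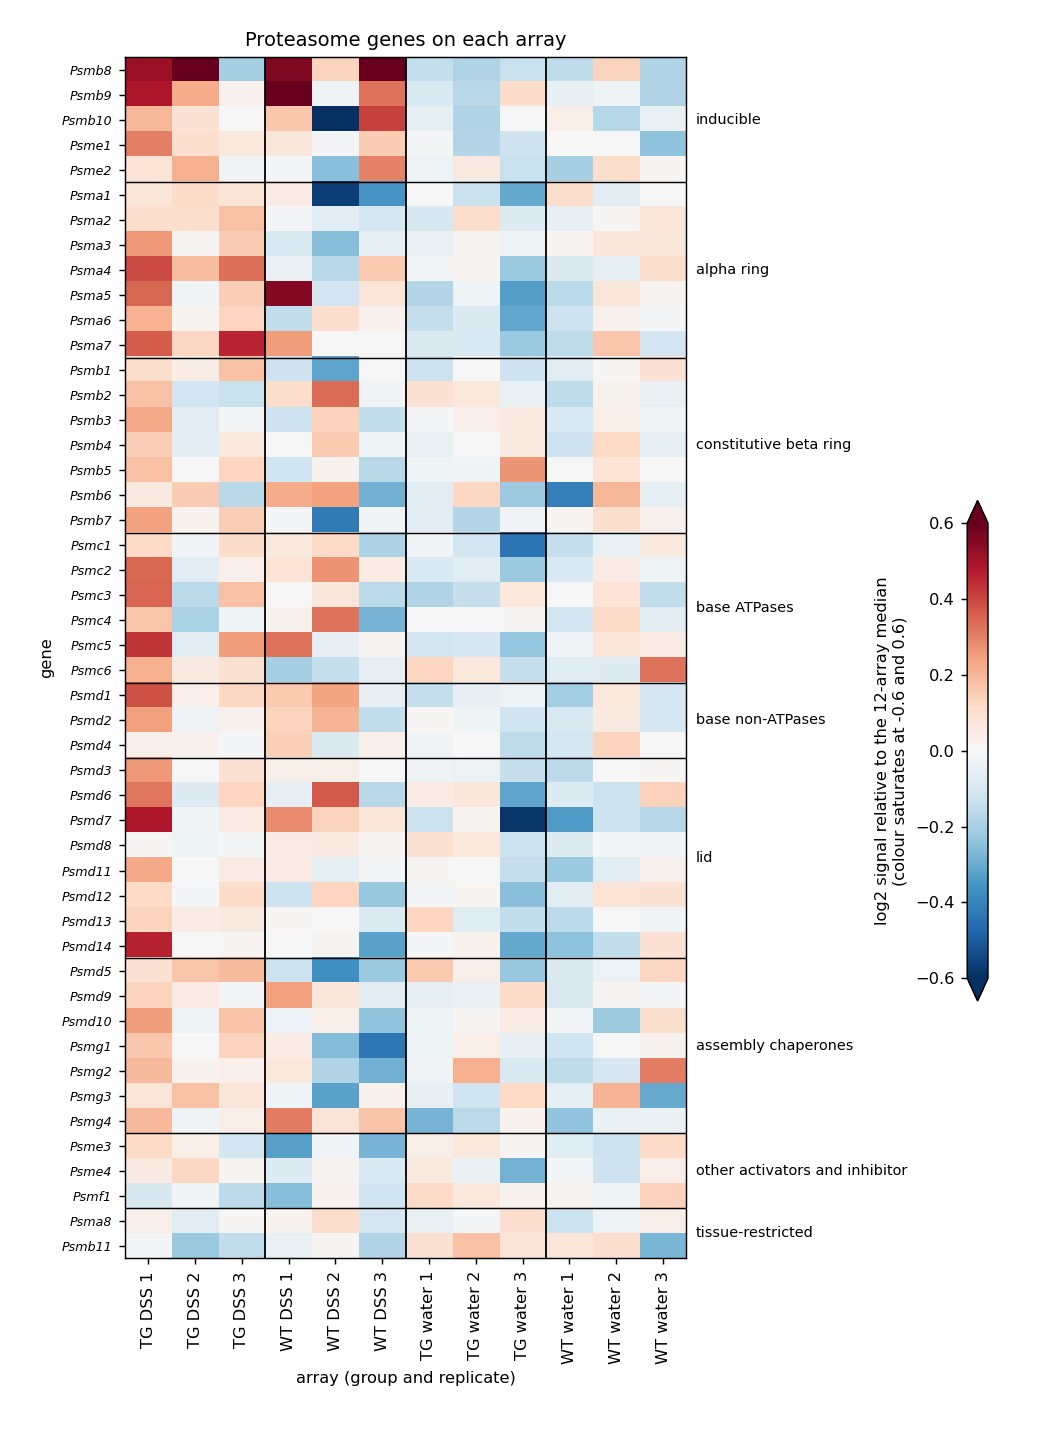
Log2 signal of the 48 proteasome genes (rows, by structural group) on the 12 arrays (columns, by group), relative to the median of each gene's probe sets over all arrays; colour saturates at -0.6 and 0.6. Psmb8 and Psmb9 are the darkest rows under DSS, the column of TG DSS replicate 1 is red in nearly every row, and Psmb10 is lowest in WT DSS replicate 2 (-0.77).

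Psmb8, the inducible subunit that replaces the chymotrypsin-like subunit Psmb5, had the highest DSS difference of the 48 genes in both genotypes. It read 0.51, 0.61 and -0.20 in TG under DSS, against -0.15, -0.18 and -0.13 in TG on water. It read 0.56, 0.14 and 0.64 in WT under DSS, against -0.15, 0.13 and -0.18 in WT on water. In WT all DSS arrays lay above all water arrays, with DSS replicate 2 just above water replicate 2. In TG, replicate 3 under DSS was the lowest of the 6 arrays. The DSS difference was 0.46 ± 0.21 in TG (SE, n = 3 arrays per group; 95% interval 0.00 to 0.92) and 0.51 ± 0.21 in WT (0.05 to 0.97), or 1.38-fold and 1.42-fold. Neither passed (limma adjusted p = 1.00 in TG and 0.285 in WT). Without TG DSS replicate 3 the TG difference was 0.72.

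Psmb9, which replaces the caspase-like subunit Psmb6, had the second highest DSS difference of the inducible genes in both genotypes. It read 0.49, 0.22 and 0.03 in TG under DSS, against -0.09, -0.17 and 0.11 in TG on water. It read 0.68, -0.03 and 0.32 in WT under DSS, against -0.05, -0.03 and -0.18 in WT on water. The WT groups did not overlap, although WT DSS replicate 2 and WT water replicate 2 both rounded to -0.03, and the TG groups overlapped. The DSS difference was 0.29 ± 0.17 in TG (95% interval -0.09 to 0.68) and 0.41 ± 0.17 in WT (0.02 to 0.80; limma adjusted p = 0.302). Without TG DSS replicate 1 the TG difference was 0.17, and without WT DSS replicate 1 the WT difference was 0.24.

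Psmb10, which replaces the trypsin-like subunit Psmb7, had the widest spread of the 48 genes. It read 0.20, 0.09 and 0.00 in TG under DSS, against -0.05, -0.18 and 0.00 in TG on water. It read 0.16, -0.77 and 0.41 in WT under DSS, against 0.04, -0.17 and -0.05 in WT on water. WT DSS replicate 2, the array with the lowest epithelial markers, held the lowest Psmb10 value of all 12, while WT DSS replicate 3 held the highest. In TG the groups were apart only by the difference between replicate 3 under DSS and on water, both at 0.00. The DSS difference was 0.18 ± 0.24 in TG and -0.01 ± 0.24 in WT, and without WT DSS replicate 2 the WT difference was 0.35. Both errors were pooled over the 4 groups. The SD was 0.10 in TG under DSS, 0.62 in WT under DSS, 0.09 in TG on water and 0.11 in WT on water. The part of the low epithelial markers of WT DSS replicate 2 in its Psmb10 value was not tested.

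Psme1 and Psme2 encode the alpha and beta subunits of the ring-shaped activator PA28. Psme1 read 0.30, 0.10 and 0.06 in TG under DSS, against -0.01, -0.18 and -0.13 in TG on water, so the groups did not overlap. It read 0.07, -0.01 and 0.15 in WT under DSS, against 0.00, 0.00 and -0.24 in WT on water, with overlap. Its DSS difference was 0.26 ± 0.10 in TG (95% interval 0.04 to 0.48) and 0.15 ± 0.10 in WT, neither of which passed. Psme2 read 0.08, 0.21 and -0.01 in TG under DSS, against -0.03, 0.06 and -0.13 in TG on water. It read -0.01, -0.25 and 0.30 in WT under DSS, against -0.20, 0.11 and 0.01 in WT on water. Its DSS differences were 0.13 ± 0.14 in TG and 0.04 ± 0.14 in WT, within the spread of the arrays. A further probe set is named by both Psme2b and Psme2 and is outside the 48 genes.

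**Figure D2:**
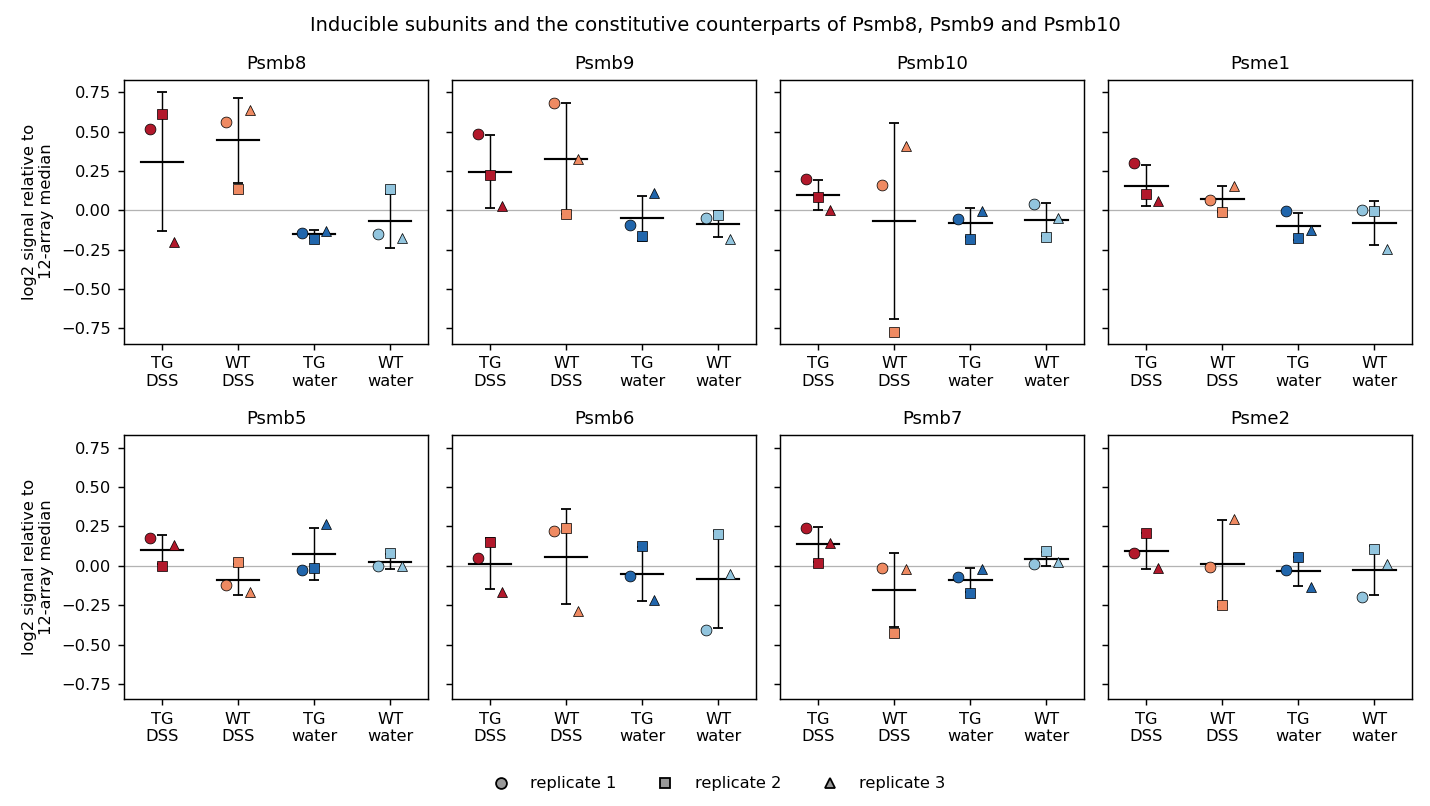
Log2 signal relative to the 12-array median (vertical axis) for the inducible genes and for Psmb5, Psmb6 and Psmb7, in TG DSS, WT DSS, TG water and WT water (left to right). Each point is an array, with its shape giving the replicate number, and bars are the group mean and SD (n = 3); Psmb8 under DSS has 5 of 6 points above 0.1, and its TG point at -0.20 lies just below the water arrays.

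Promoter sequences are shown for Psmb8 and Psmb9, because these 2 genes had the largest DSS differences among the inducible 5, and for Psme1 and the constitutive Psmb5 beside them. Sequences are from RefSeq on GRCm38.p6, 5′ to 3′ on the gene's strand. The Psmb8 stretch is chr17:34197945-34198194 (plus strand), immediately before the annotated start, and its capitals mark a match to the interferon-gamma-activated site GAS (TTCNNNGAA) from -97 to -89. The Psmb9 stretch is chr17:34187331-34187580 (minus strand), and its capitals mark the 225 bases that lie between the annotated starts of Psmb9 and of the neighbouring, oppositely oriented peptide transporter gene Tap1. The Psme1 stretch is chr14:55578394-55578523 (plus strand) and crosses the start, with capitals on a match to the interferon-stimulated response element core (GAAA, 2 bases of any kind and GAAA, here on the opposite strand) at 10 to 19. The Psmb5 stretch is chr14:54617996-54618245 (minus strand), with capitals on a match to TGACNNNGC, the core of the antioxidant response element, from -47 to -39.
Psmb8: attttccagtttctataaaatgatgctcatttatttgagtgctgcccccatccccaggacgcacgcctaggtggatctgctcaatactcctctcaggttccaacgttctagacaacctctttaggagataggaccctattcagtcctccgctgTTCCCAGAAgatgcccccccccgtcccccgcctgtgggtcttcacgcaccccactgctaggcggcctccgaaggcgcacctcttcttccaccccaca
Psmb9: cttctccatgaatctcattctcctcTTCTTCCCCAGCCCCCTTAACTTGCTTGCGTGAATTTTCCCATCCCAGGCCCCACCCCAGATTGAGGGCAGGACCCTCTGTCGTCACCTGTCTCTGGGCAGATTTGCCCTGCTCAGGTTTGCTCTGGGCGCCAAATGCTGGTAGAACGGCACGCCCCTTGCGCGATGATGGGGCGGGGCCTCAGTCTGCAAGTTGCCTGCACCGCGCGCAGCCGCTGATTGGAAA
Psme1: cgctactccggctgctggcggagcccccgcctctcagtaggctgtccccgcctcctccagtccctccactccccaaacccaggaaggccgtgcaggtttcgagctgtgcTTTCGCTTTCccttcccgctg
Psmb5: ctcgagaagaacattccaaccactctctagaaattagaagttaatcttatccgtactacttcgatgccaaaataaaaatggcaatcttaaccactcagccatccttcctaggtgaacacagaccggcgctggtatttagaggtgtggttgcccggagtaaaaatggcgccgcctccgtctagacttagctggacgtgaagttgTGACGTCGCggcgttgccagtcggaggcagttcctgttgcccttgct

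Searched on both strands of 32851 promoter windows of 300 bases (250 before to 50 after a start), GAS letters occurred in 8.30% of windows, the response element core in 3.44% and TGACNNNGC in 12.4%. Of the 48 genes, 40 had a window, in 43 windows altogether. GAS letters occurred in 3 of the 43 (Psmb8, Psmd2 and Psmg1), the response element core in 5 (Psmb3, Psmd4, Psmd9, Psme1 and Psmg4) and TGACNNNGC in 6 (Psmb5, Psmb6, Psmc6, Psmd12, Psmd9 and Psme4). A match is a stretch of letters and not a measured binding site. The window of Psmb9 held none of the 3 patterns, and no match was found for Psmb10 or Psme2. This says only that these letters are not in the windows searched, and 8 of the 48 genes had no window.

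Tap1, which shares the 225 bases with Psmb9 and pumps the cut peptides into the endoplasmic reticulum, read 0.55, 0.57 and -0.20 in TG under DSS, against -0.15, -0.31 and -0.08 in TG on water. It read 1.09, 0.52 and 0.42 in WT under DSS, against 0.08, -0.18 and -0.23 in WT on water. All WT DSS arrays lay above all WT water arrays, and in TG replicate 3 under DSS lay among the water arrays. The DSS difference of Tap1 was 0.48 ± 0.23 in TG and 0.79 ± 0.23 in WT (limma adjusted p = 0.162 in WT). The class I antigen processing list, drawn up with earlier results of these arrays known, had 11 of its 14 genes measured. Of these, 0 passed in either genotype. The median DSS difference was 0.06 in TG and 0.19 in WT, against -0.01 in TG and -0.04 in WT over all genes. B2m, the light chain of class I molecules, stood at 0.02 ± 0.10 for DSS in TG and 0.51 ± 0.10 for DSS in WT (limma adjusted p = 0.0677), and TG lay below WT under DSS by 0.53, with a limma adjusted p = 0.0882. Tap2, the partner of Tap1, stood at 0.16 ± 0.11 in TG and 0.38 ± 0.11 in WT. Nlrc5, a transcriptional activator of class I genes, stood at 0.06 ± 0.17 in TG and 0.56 ± 0.17 in WT. Other genes of the list took another order, and the interaction was above 0 for 3 of the 11 (52.2% of all genes). Erap1 stood at 0.31 ± 0.11 in TG and 0.03 ± 0.11 in WT. Tapbpl stood at -0.22 ± 0.18 in TG and -0.36 ± 0.18 in WT.

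**Figure D3:**
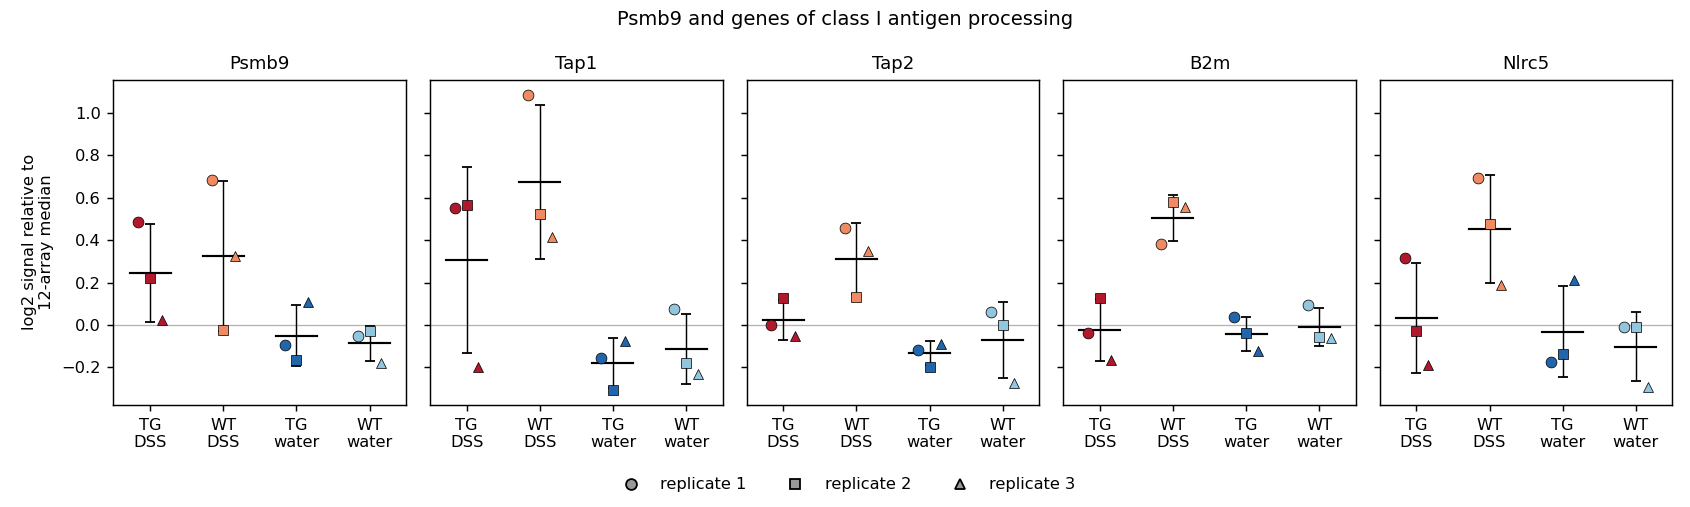
Log2 signal relative to the 12-array median (vertical axis) for Psmb9 and for Tap1, Tap2, B2m and Nlrc5 in the 4 groups, with points for arrays, shapes for replicate numbers and bars for mean and SD (n = 3). The 3 WT DSS points of B2m lie between 0.38 and 0.58, above its other 9 points, and the WT DSS points of Psmb9 spread between -0.03 and 0.68.

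Of the interferon-gamma signalling list, 17 of 20 genes were measured and 0 passed in any comparison. Cxcl10, a chemokine induced by interferon-gamma, read 1.25, 0.00 and -0.27 in TG under DSS and 3.63, 3.06 and -0.13 in WT under DSS, against -0.16 to 0.19 in the water arrays. Other genes of the list took another order. Ido1, an interferon-induced enzyme that breaks down tryptophan, read 2.44, -0.25 and 2.73 in WT under DSS, and the transcription factor Irf8 read 0.25, -0.99 and 0.37. The list's median was 0.40, 0.05 and -0.01 in WT under DSS. WT DSS replicate 1 held the highest Psmb9 value of all 12 arrays. It also held the highest for 8 of the 17 genes, among them Ifng, Cxcl9 and Cxcl10, against 3.44% of all genes. Of 19 leukocyte genes it was highest for 3 (Cd52, Cd79a and Ms4a1). WT DSS replicate 3 held the highest Psmb8 and Psmb10 values. It was also highest for 3 of the 17 (Irf1, Irf8 and Ido1), against 10.2% of all genes. Among the 19 leukocyte genes it was highest for 3 T and NK cell genes (Cd3g, Cd8a and Nkg7), with Cd3g and Nkg7 both at 1.74. WT DSS replicate 2, with the lowest Psmb10 value, was highest for 1 of the 17 (Jak1) and for 13 of the 19, against 22.0% of all genes. These 13 included the T cell genes Cd3e and Cd4. Cd4 read 2.07 in WT DSS replicate 2 and -0.10 in WT DSS replicate 3, and Cd3g read 1.55 in WT DSS replicate 2. The part of these genes in the Psmb8, Psmb9 and Psmb10 values was not tested. Irf1, a transcription factor known to induce the inducible subunits, differed by 0.09 ± 0.10 for DSS in TG and 0.11 ± 0.10 in WT.

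Of the constitutive counterparts of the 3 inducible cutting subunits, Psmb5 and Psmb6 had DSS differences between -0.11 and 0.15. Psmb7 is described separately below. Psmb5 read 0.17, 0.00 and 0.13 in TG under DSS, against -0.03, -0.02 and 0.27 in TG on water, and its DSS difference was 0.03 ± 0.10 in TG. It read -0.12, 0.02 and -0.17 in WT under DSS, against 0.00, 0.08 and 0.00 in WT on water, a difference of -0.11 ± 0.10. Both pairs of groups overlapped. Psmb6 read 0.05, 0.15 and -0.16 in TG under DSS, against -0.07, 0.13 and -0.22 in TG on water. It read 0.22, 0.24 and -0.29 in WT under DSS, against -0.41, 0.20 and -0.05 in WT on water. Replicates within each group of Psmb6 differed by more than the group means did.

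Psmb7 read in opposite order in TG and in WT. It read 0.24, 0.02 and 0.15 in TG under DSS, against -0.07, -0.18 and -0.02 in TG on water. It read -0.01, -0.43 and -0.02 in WT under DSS, against 0.01, 0.10 and 0.03 in WT on water. TG arrays under DSS all lay above those on water, and WT arrays under DSS all lay below those on water. The WT margin was narrow, at -0.014 in DSS replicate 1 against 0.014 in water replicate 1. WT DSS replicate 2, the array with the lowest epithelial markers, held the lowest Psmb7 value of the 12. The DSS difference was 0.22 ± 0.12 in TG and -0.20 ± 0.12 in WT. The interaction was 0.42 ± 0.16 (95% interval 0.06 to 0.79; limma adjusted p = 0.822), so it did not pass.

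Over the whole sets, the mean of the inducible 5 minus the mean of the 31 constitutive subunits was 0.09, 0.25 and -0.12 in TG under DSS and 0.24, -0.21 and 0.44 in WT under DSS. On water it was -0.03, -0.11 and 0.10 in TG and 0.04, -0.02 and -0.13 in WT. The group means were 0.07 ± 0.18 in TG under DSS, 0.16 ± 0.33 in WT under DSS, -0.01 ± 0.11 in TG on water and -0.04 ± 0.09 in WT on water (SD, n = 3). DSS minus water was 0.09 in TG and 0.20 in WT, and each DSS group had 1 array below all its water arrays. The WT difference was smaller than the SD in WT under DSS, and the TG difference smaller than the SD in TG under DSS. Without TG DSS replicate 2 the TG difference was -0.0027, without TG water replicate 2 it was 0.036, and without replicate 3 it was 0.18 (DSS) or 0.14 (water). Without WT DSS replicate 2 the WT difference was 0.38, and without WT DSS replicate 3 it was 0.06. No test was made on this score, because its members were proposed with results of these arrays known. The score was above 0 in 4 of the 6 DSS arrays and in 2 of the 6 water arrays.

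The median over the 31 constitutive subunits was 0.23, 0.00 and 0.09 in TG under DSS, against -0.02, 0.00 and -0.14 in TG on water, so the groups overlapped at replicate 2. In WT it was 0.02, 0.04 and -0.05 under DSS, against -0.09, 0.04 and 0.00 on water, also with overlap. By single genes, the DSS difference of group means in TG was above 0 for 28 of the 31 constitutive subunits, with a median of 0.18, and for 41 of all 48 members, with a median of 0.16. Over all genes 46.2% lay above 0, with a median of -0.01. In WT it was above 0 for 20 of 31 subunits, with a median of 0.04, and for 27 of 48 members, with a median of 0.03, against 40.6% of all genes and a median of -0.04. Counting genes whose 3 DSS arrays all lay above the 3 water arrays, 13 of 48 members did so in TG (6.76% of all genes) and 5 of 48 in WT (5.45% of all genes). Genes with all DSS arrays below numbered 2 in TG, Psmb11 and Psmf1 (6.64% of all genes), and 3 in WT, Psma3, Psmb7 and Psmd5 (10.7% of all genes). The genotypes were compared by the interaction, which was above 0 for 37 of 48 members, with a median of 0.13 and no member passing, against 52.2% of all genes and a median of 0.01.

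The alpha ring held 6 of the 13. Psma7 read 0.36, 0.12 and 0.46 in TG under DSS, against -0.09, -0.09 and -0.22 in TG on water, a difference of 0.45 ± 0.12 (95% interval 0.18 to 0.72) and the largest after Psmb8 in TG. It read 0.25, 0.00 and 0.00 in WT under DSS, against -0.15, 0.17 and -0.11 in WT on water. Every TG array under DSS was above 0.1 and every TG array on water below 0, while the WT groups overlapped. Psma4 read 0.39, 0.19 and 0.33 in TG under DSS, against -0.01, 0.01 and -0.22 in TG on water, a difference of 0.38 ± 0.11. It read -0.05, -0.17 and 0.16 in WT under DSS, against -0.09, -0.05 and 0.10 in WT on water, a difference of -0.01 ± 0.11. The groups of Psma4 were apart in TG and overlapped in WT.

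Psma5 and Psma6 stood 0.34 ± 0.17 and 0.30 ± 0.10 higher under DSS in TG, Psma1 0.24 ± 0.14 and Psma3 0.16 ± 0.08, each with no overlap. Psma2 stood at 0.15 ± 0.08 with overlap. The median over the 7 genes was 0.30 in TG and -0.01 in WT. The 3 probe sets of Psma3 gave like values: in TG DSS replicate 1 they read 0.35, 0.21 and 0.22. None of these differences passed (limma adjusted p = 1.00 for each in TG). Without TG DSS replicate 1, 6 of the 7 genes had all TG DSS arrays above the TG water arrays (11.3% of all genes). Leaving out an array cannot create overlap, so this count could not fall below the 6 found with all arrays.

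The constitutive beta ring had a median DSS difference of 0.05 in TG and -0.02 in WT. Psmb7 (0.22 ± 0.12) and Psmb1 (0.19 ± 0.09), a non-cutting subunit, were the highest in TG, and Psmb2 (-0.06 ± 0.12), another non-cutting subunit, the lowest. In WT the highest was Psmb2 (0.20 ± 0.12) and the lowest Psmb7 (-0.20 ± 0.12). The alpha and beta medians were not tested against each other.

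In the base, the 6 ATPases had a median DSS difference of 0.22 in TG and 0.04 in WT. Psmc5 read 0.43, -0.07 and 0.25 in TG under DSS, against -0.11, -0.10 and -0.23 in TG on water, a difference of 0.35 ± 0.13. It read 0.33, -0.05 and 0.01 in WT under DSS, against -0.01, 0.07 and 0.04 in WT on water, a difference of 0.06 ± 0.13. The Psmc5 groups were apart in TG, by a narrow margin, and overlapped in WT. Psmc4 was the lowest ATPase in TG (-0.02 ± 0.15) and Psmc6 in WT (-0.19 ± 0.12). Among the non-ATPase subunits, the scaffold Psmd1 stood at 0.26 ± 0.12 in TG and 0.20 ± 0.12 in WT, and the ubiquitin receptor Psmd4 at 0.07 ± 0.09 in TG and 0.02 ± 0.09 in WT.

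The lid had a median DSS difference of 0.17 in TG and 0.07 in WT. Psmd7, which pairs with the lid's deubiquitinase Psmd14, read 0.49, -0.02 and 0.05 in TG under DSS, against -0.13, 0.02 and -0.58 in TG on water. It read 0.28, 0.14 and 0.07 in WT under DSS, against -0.34, -0.13 and -0.17 in WT on water. The WT groups did not overlap and the TG groups did, with differences of 0.40 ± 0.17 in TG and 0.38 ± 0.17 in WT. Psmd14 itself stood at 0.26 ± 0.16 in TG and 0.00 ± 0.16 in WT. Psmd8 was the lowest lid subunit in TG (-0.02 ± 0.07) and Psmd12 in WT (-0.11 ± 0.11).

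**Figure D4:**
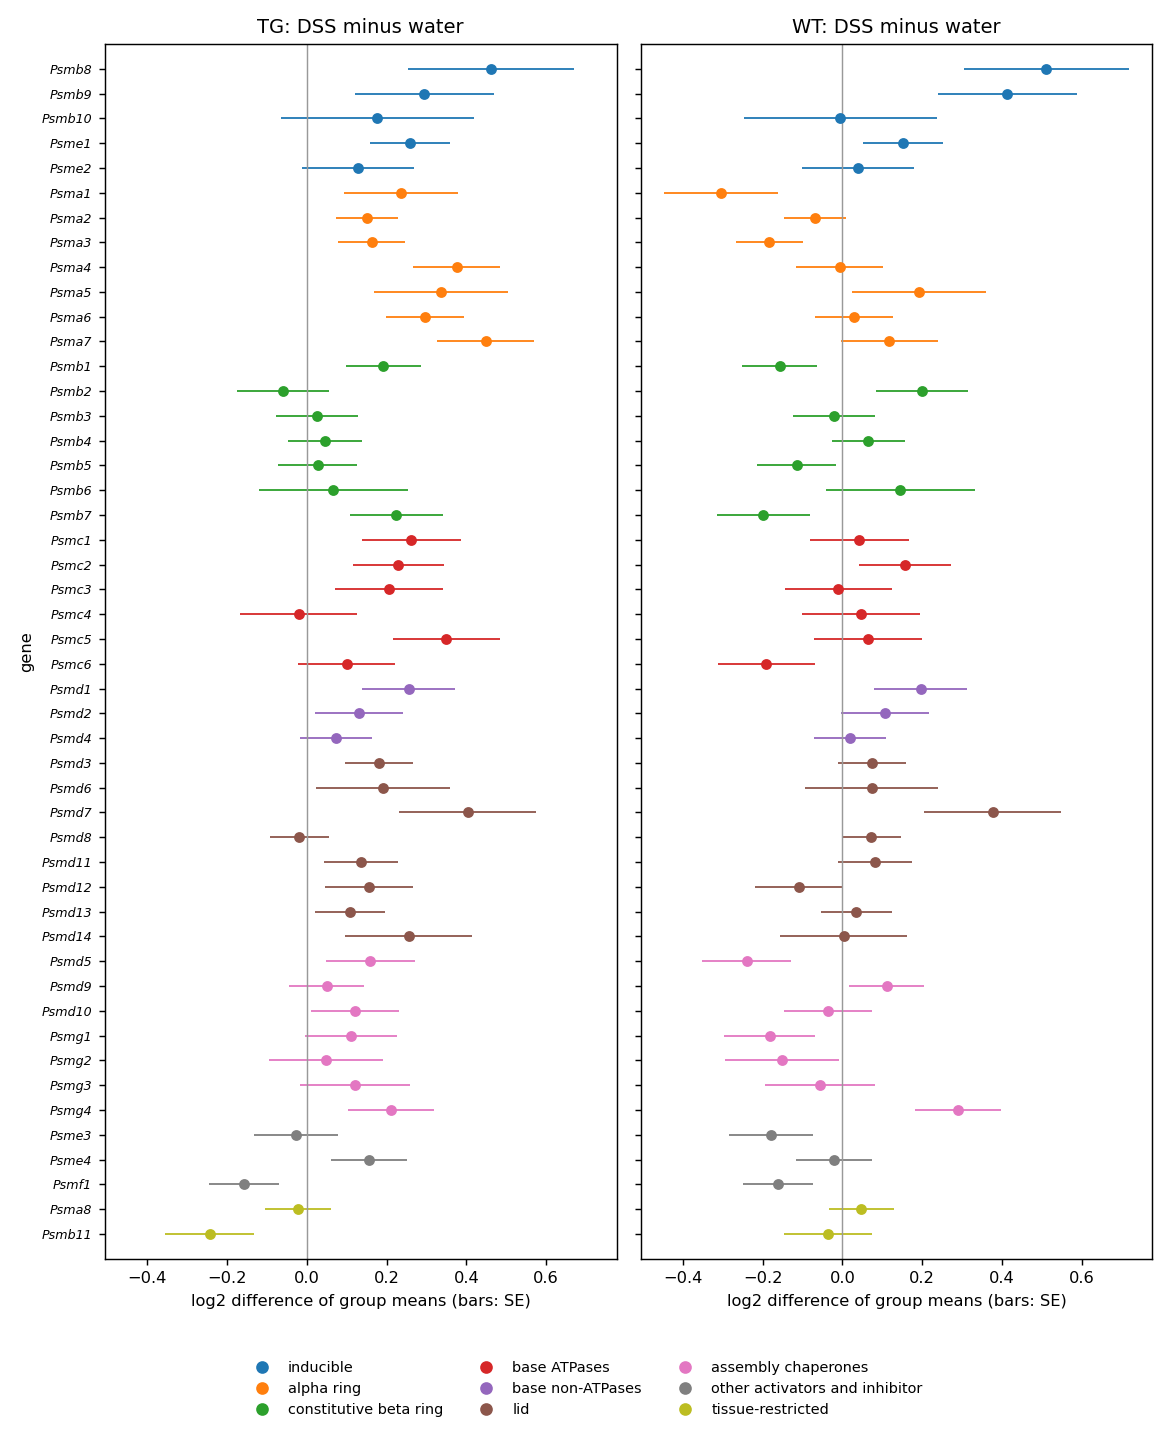
DSS minus water difference of group means (horizontal axis, log2) with its SE for each of the 48 genes, in TG (left) and WT (right), coloured by structural group. In TG 41 genes lie right of 0 and the alpha ring spans 0.15 to 0.45; in WT 27 lie right of 0 and the alpha ring spans -0.30 to 0.19.

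Assembly chaperones build the rings and the base. Psmg4, one of the 4 chaperones of the alpha ring, read 0.19, -0.02 and 0.04 in TG under DSS, against -0.28, -0.16 and 0.02 in TG on water. It read 0.31, 0.08 and 0.17 in WT under DSS, against -0.23, -0.04 and -0.04 in WT on water, with no overlap in WT. The differences were 0.21 ± 0.11 in TG and 0.29 ± 0.11 in WT (95% interval 0.05 to 0.53 in WT; limma adjusted p = 0.254). The median over the 7 chaperones was 0.12 in TG and -0.06 in WT. The lowest were Psmg2 (0.05 ± 0.14) in TG and Psmd5 (-0.24 ± 0.11) in WT.

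The 3 remaining regulators had DSS differences between -0.18 and 0.16. Psme3, the nuclear activator PA28 gamma, read 0.12, 0.04 and -0.12 in TG under DSS, against 0.04, 0.06 and 0.02 in TG on water. It read -0.33, -0.02 and -0.28 in WT under DSS, against -0.07, -0.13 and 0.11 in WT on water. The groups overlapped in both genotypes, with differences of -0.03 ± 0.11 in TG and -0.18 ± 0.11 in WT. Psme4, the activator PA200, read 0.06, 0.12 and 0.02 in TG under DSS, against 0.05, -0.04 and -0.28 in TG on water. It read -0.08, 0.01 and -0.09 in WT under DSS, against -0.01, -0.12 and 0.04 in WT on water. Overlap was again present in both genotypes. Psmf1, the regulator PI31, read -0.09, -0.02 and -0.16 in TG under DSS, against 0.12, 0.06 and 0.02 in TG on water, with no overlap. It read -0.25, 0.02 and -0.12 in WT under DSS, against 0.02, -0.02 and 0.14 in WT on water, with overlap. The differences of Psmf1 were -0.16 ± 0.09 in both genotypes. The thymus subunit Psmb11 stood at -0.24 ± 0.11 in TG and -0.04 ± 0.11 in WT, and the testis subunit Psma8 at -0.02 ± 0.08 in TG and 0.05 ± 0.08 in WT.

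Of the proteasome-associated and delivery factors, 18 of 22 were measured and 0 passed in any comparison. Pomp, the maturation factor of the core, read 0.51, 0.02 and 0.17 in TG under DSS, against -0.02, -0.21 and -0.38 in TG on water. It read 0.27, 0.20 and 0.48 in WT under DSS, against -0.37, -0.03 and -0.11 in WT on water. All DSS arrays lay above all water arrays in both genotypes, with differences of 0.44 ± 0.15 in TG and 0.49 ± 0.15 in WT (limma adjusted p = 0.181 in WT). Pomp was the highest of the 18 in both genotypes. The list's median was 0.07 in TG and 0.08 in WT. All DSS arrays lay above for 4 of the 18 in TG (6.76% of all genes) and 3 in WT (5.45%). They lay below for 0 in TG (6.64% of all genes) and 3 in WT (10.7%). Among these 3, Ecpas stood at -0.31 ± 0.10 in WT (limma adjusted p = 0.181). Of the 6 measured genes around Nfe2l1, the transcription factor known to raise proteasome genes when proteasome activity is short, 0 passed. Nfe2l1 stood at 0.04 ± 0.15 for DSS in TG and 0.23 ± 0.15 in WT. In WT under DSS it read -0.02, 0.65 and 0.07, with the high value in replicate 2, the array with the lowest epithelial markers. The median DSS difference over these 6 genes was -0.06 in TG and 0.09 in WT.

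Under DSS, TG lay above WT for 35 of the 48 members, with a median of 0.10, against 57.9% of all genes and a median of 0.04. In 11 members all TG arrays lay above all WT arrays (14.1% of all genes), and in 1, Psmd8, all lay below (4.9% of all genes). This comparison shares the TG DSS arrays with the DSS comparison in TG and the WT DSS arrays with that in WT. Psmd5, a chaperone of the base, read 0.09, 0.17 and 0.19 in TG under DSS, against -0.13, -0.37 and -0.22 in WT under DSS. The groups were well apart, and the difference of 0.39 ± 0.11 (95% interval 0.14 to 0.64) had the lowest adjusted p of the members in any comparison (limma adjusted p = 0.162). Psma3 read 0.26, 0.02 and 0.15 in TG under DSS, against -0.09, -0.25 and -0.06 in WT under DSS, a difference of 0.28 ± 0.08. The alpha ring had a median of 0.23, with Psma1 highest (0.38 ± 0.14) and Psma5 lowest (-0.01 ± 0.17).

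Among the inducible genes under DSS, none stood apart between the genotypes. TG minus WT was -0.14 ± 0.21 for Psmb8 (95% interval -0.60 to 0.33), -0.08 ± 0.17 for Psmb9 and 0.16 ± 0.24 for Psmb10. It was 0.08 ± 0.10 for Psme1 and 0.08 ± 0.14 for Psme2. These intervals include differences as large as the DSS differences of the same genes, so the data do not show that the genotypes were alike. The leukocyte list stood lower in TG than in WT under DSS, with a median difference of -1.04 over 19 genes. Of these 0 passed and 8 had an unadjusted limma p under 0.05 (15.9% of all genes). The groups were apart in 0 of the 19 (14.1% of all genes higher and 4.9% lower). The list's median in WT DSS replicate 3 (-0.01) lay below that in TG DSS replicate 1 (0.82). The part of the leukocyte list in the genotype differences of the proteasome genes was not tested.

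At water, the proteasome genes of TG and WT lay close together. The median difference was -0.01, with 21 of 48 above 0, and 0 members had all TG arrays above all WT arrays (1.93% of all genes). In 2 members, Psmb7 and Psmc5, all TG arrays lay below (3.05% of all genes). Psmc5 had the lowest difference (-0.18 ± 0.13) and Psmb11 the highest (0.15 ± 0.11). All 7 alpha ring genes lay below 0, between -0.16 and -0.04. TG water replicate 3 held the lowest value of the 12 arrays for 13 of the 48 members, against 6.35% of all genes. The same array held the highest value for 1 of the 48, against 23.2% of all genes. It is part of the TG water mean in every DSS difference in TG.

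TG DSS replicate 1 held the highest value of the 12 arrays for 19 of 48 members, against 6.92% of all genes, and lay above 0 for 31 of 31 constitutive subunits. TG DSS replicates 2 and 3 lay above 0 for 15 and 25 of the 31. Replicate 1 was also the TG DSS array with the highest leukocyte median (0.82) and the lowest epithelial median (-0.19), and the part of these in its proteasome values was not tested. The alpha ring median was 0.26, 0.11 and 0.15 in TG under DSS and -0.01, -0.12 and 0.00 in WT under DSS, against -0.09, -0.03 and -0.22 in TG on water and -0.09, 0.03 and 0.02 in WT on water. All TG DSS arrays thus lay above the other 9 for this median.

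**Figure D5:**
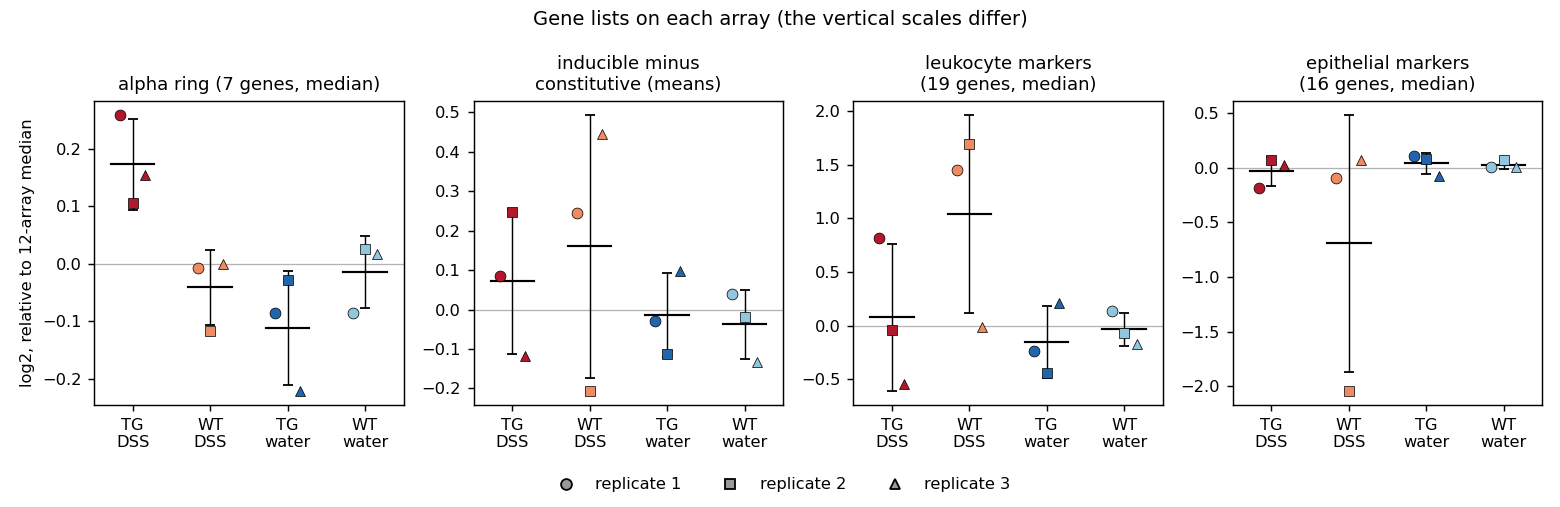
Per-array values (log2 relative to the 12-array median, vertical axes of different scale) of the alpha ring median, the inducible minus constitutive mean, and the leukocyte and epithelial marker medians in the 4 groups, with bars for mean and SD (n = 3). The 3 TG DSS points of the alpha ring (0.11 to 0.26) lie above the other 9, and WT DSS replicate 2 stands alone in the epithelial panel at -2.04.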

How the data were processed

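Per the submitters' processing notes, the authors made RMA signals in Affymetrix Expression Console (version not given in the sources used). The log2 scale of the deposited table is assumed from RMA and is not stated. Each probe set has a median of 0 over the 12 arrays (to 5e-07), as found from its values. Without absolute levels, no filter on dim probe sets and no choice of the brightest probe set could be made. Of 28815 probe sets, 21780 carried 1 gene symbol, 1605 several and 5430 none, per the platform annotation. Probe sets of a gene were averaged, giving 19935 genes, and 21689 probe sets were matched to RefSeq.

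One limma 3.58.1 fit (R 4.3.3, lmFit and eBayes, 8 residual degrees of freedom) gave a mean per group for all 12 arrays. Two-sided p-values were adjusted by Benjamini-Hochberg over all 19935 genes, and 0.05 was the threshold. An exact permutation test of 3 against 3 arrays cannot go below 0.1, so none was used. The scripts were tested on simulated data. The members, gene lists and tests were chosen with earlier results of these data known. Of the 48 genes any could be named, always the inducible genes, their counterparts, Psme3, Psme4, Psmf1 and the highest and lowest of each structural group. Same-numbered arrays of different groups had deviations correlating between -0.484 and 0.377, and the main fit did not pair them. With 3 arrays per group these correlations cannot exclude a pairing, which the labels do not state. Alternatives were the 2 groups alone, a replicate block, single probe sets, centred arrays, a trended robust eBayes, array or group weights, a threshold of 0.01, and leaving out single arrays. The joint omission of WT DSS replicates 2 and 3 and the repeat of the counts of non-overlapping groups were added after seeing the data. Left out were 7035 probe sets without a single gene name.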

Additional observations from a re-analysis of the deposited data

Results flagged for a closer look

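Psma3, an alpha ring subunit, is listed because its arrays moved in opposite directions: all 3 TG DSS arrays (0.26, 0.02 and 0.15) lay above the TG water arrays (-0.04, 0.01 and -0.03), and all 3 WT DSS arrays (-0.09, -0.25 and -0.06) below the WT water arrays (0.01, 0.07 and 0.07). The interaction was 0.35 ± 0.12 (SE, n = 3 arrays per group), which did not pass (limma adjusted p = 0.801). Psmb7, the trypsin-like subunit, is listed for the same reason, and also because TG lay above WT on all arrays under DSS and below on all arrays at water. Its interaction of 0.42 ± 0.16 did not pass either (limma adjusted p = 0.822). Both were listed by the order of the arrays and not by a test. The margin was narrow for Psma3 in TG, at 0.017 in DSS replicate 2 against 0.014 in water replicate 2. It was also narrow for Psmb7 in WT, at -0.014 in DSS replicate 1 against 0.014 in water replicate 1. WT DSS replicate 2 held the lowest value of the 12 arrays for both genes. The share of all genes with such opposite orders was not counted.

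The probe set named by both Psme2b and Psme2, outside the 48 genes, stood 0.02 higher under DSS than on water in TG, and 0.27 higher in WT, where all DSS arrays lay above all water arrays. No test was made on it.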

How the results depend on the processing

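The number of members passing was 0 in every comparison, also with the replicate block (0), with 2 groups alone, single probe sets, centred arrays, trend and robust, weights per group or a threshold of 0.01. It differed under weights per array, with 2 for DSS in WT (Psmb9 at 0.62, limma adjusted p = 0.0325, and Psmg4 at 0.47, limma adjusted p = 0.0323, with 3.78% of all genes passing) and 2 for TG minus WT at water (Psmd11 and Psmg2, with 9.89% of all genes passing). With each array left out in turn it was 0 to 1 for DSS in WT and 0 to 2 for TG minus WT under DSS, both upper values without WT DSS replicate 1 (Psma1 at -0.47 for DSS in WT, where 4.61% of all genes passed; Psma1 at 0.55 and Psmg1 at 0.44 for TG minus WT, where 5.85% passed).

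With each array left out in turn, members above all compared arrays numbered 5 to 14 for DSS in WT (14 without WT DSS replicate 3, 10 without WT water replicate 2), 14 to 25 for DSS in TG (25 without TG DSS replicate 2, 21 without TG water replicate 2), 11 to 18 for TG minus WT under DSS (18 without TG DSS replicate 2) and 0 to 5 for TG minus WT at water (5 without WT water replicate 2). With fewer arrays, fewer can overlap: over all genes the shares in these settings were 7.17 to 11.6% for DSS in WT, 9.94 to 14.3% for DSS in TG, 16.5 to 23.7% for TG minus WT under DSS and 4.01 to 7.59% for TG minus WT at water. Alpha ring genes above all compared arrays numbered 6 to 7 for DSS in TG and 0 to 1 for DSS in WT. Leaving out an array cannot create overlap, so none of these counts could fall below its value with all arrays.

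Among the inducible genes, differences near 0 changed sign. For DSS in WT the omission of arrays gave -0.24 to 0.35 for Psmb10 and -0.10 to 0.17 for Psme2, and Psmb10 stood at 0.028 with centred arrays, 0.15 with weights per array and 0.22 without WT DSS replicates 2 and 3. For TG minus WT under DSS it gave -0.29 to 0.12 for Psmb8, -0.26 to 0.095 for Psmb9, -0.19 to 0.40 for Psmb10 and -0.052 to 0.22 for Psme2, and Psmb10 stood at -0.090 with weights per array and -0.066 without both WT DSS replicates. For TG minus WT at water it gave -0.14 to 0.012 for Psmb8, -0.044 to 0.094 for Psmb9, -0.075 to 0.032 for Psmb10, -0.10 to 0.020 for Psme1 and -0.094 to 0.058 for Psme2, and with weights per array Psmb9 stood at -0.088 and Psme2 at 0.19. For the interaction it gave -0.20 to 0.21 for Psmb8, -0.29 to 0.059 for Psmb9, -0.17 to 0.42 for Psmb10 and -0.044 to 0.23 for Psme2, with Psme2 at -0.13 under weights per array and Psmb10 at -0.047 without both WT DSS replicates. The causes were not tested. Psmb8 and Psmb9 kept positive DSS differences in both genotypes in every setting run, and with each array left out these were 0.31 to 0.72 in TG and 0.41 to 0.67 in WT for Psmb8, and 0.17 to 0.40 in TG and 0.24 to 0.59 in WT for Psmb9.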
